A study of Arabidopsis thaliana with 18 samples.

Results

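Plant U-box (PUB) proteins are ubiquitin ligases. The members described here are the 9 Arabidopsis genes with a PUB symbol and a number that had a probe set assigned to a single gene, out of 13356 genes with such a probe set on the array. The rule asked for the 10 brightest PUB genes, and as 9 were found, all entered: PUB49, PUB24, PUB43, PUB26, PUB19, PUB25, PUB23, PUB15 and PUB22, in order of mean signal. Each had 1 such probe set. The gene table lists 22 genes with a PUB symbol, and the other 13 were not analysed here. Membership rested on the symbol, so the courses over time did not choose the genes, although PUB22 was named in the rule with its course already known.

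Ubiquitin is passed from an activating enzyme (E1) to a conjugating enzyme (E2), and a ligase (E3) then brings the loaded E2 to the protein that is to be tagged. A chain of ubiquitin usually sends that protein to the 26S proteasome for breakdown. In a U-box ligase, a fold related to the RING domain binds the E2 without metal ions, while other parts of the protein, often armadillo repeats, bind the substrate. Plants have many more U-box genes than animals, and several act in immune, drought and cold signalling in leaves.

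All samples were full rosettes of wild-type Col-0, 5 to 6 weeks old, with no treatment or mutant. They were taken at 6 labelled times, 0, 4, 8, 12, 16 and 20 h, and each sample was ground from 15 rosettes. Each time had 3 Affymetrix arrays, 1 from each of 3 independently grown sets of plants, which makes 18 arrays. These sets carry the letters A, B and C in the labels and are referred to as series. The labels do not say when the light came on. Pooled rosettes give 1 value per pool, so plants within a pool cannot be seen, and in whole rosettes fewer cells with a transcript and less transcript per cell cannot be told apart.

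The values are the deposited linear signals, and no detection calls were used, so whether a probe set was above background could not be judged. The array medians lay between 32.2 and 39.9, and 3 arrays per time limit the precision of every mean. Series B at 4 h and at 16 h held arrays whose mean correlation with A and C was higher at the opposite labelled time, 12 h off (0.963 and 0.967), than at their own (0.945 and 0.946). For 4 other arrays these means differed by little: 0.958 at the opposite and 0.957 at the own time for 4 h A, 0.946 and 0.947 for 4 h C, 0.954 and 0.955 for 16 h A, and 0.945 and 0.945 for 16 h C. RNA quality, read from the 3' to 5' ratio of ubiquitin control signals, also set series C apart, with 2.73 to 4.39, while A had 1.61 to 1.82 and B 1.52 to 1.80. Photosynthesis genes fitted the labelled tissue: RCA, PRK, LHCB4.1, LHCB4.2 and LHCB4.3 had mean signals from 1062 to 5270, all at or above the 97.4th percentile of probe sets. Of the root markers, PYK10 had a mean signal of 189.8 (percentile 84.1) and EXPA7 of 9.54 (percentile 27.4).

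Most PUB genes were dim on this array. PUB49, PUB24 and PUB43 lay above the median probe set, whose mean signal was 37.1, with mean signals of 71.1, 43.3 and 42.1. PUB26 had 22.2, PUB19 17.9, PUB25 13.5, PUB23 13.4, PUB15 8.51 and PUB22 5.87, which put PUB22 at the 21.4th percentile of all probe sets. Probe sets bind with different strength, so these signals set no order of transcript levels between the genes. No value of a member was listed at 0.

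PUB22 (AT3G52450) changed over the day, and no call was made for any of the other 8 members. PUB22 works with its relatives PUB23 and PUB24 to dampen the immune response to microbial patterns, and with PUB23 it also limits drought tolerance. Its signal at 0 h was 13.8 in A, 11.2 in B and 17.4 in C. At 4 h it was 2.8, 8.3 and 2.0, and at 8 h 0.7, 1.2 and 1.2 in the same order. At 4 h and at 8 h every series was below every 0 h value. At 12 h the 3 series had 2.0, 0.7 and 1.3, at 16 h 7.8, 2.0 and 3.4, and at 20 h 12.7, 10.8 and 6.3. The gene was thus low at 8 and 12 h and high at 20 and 0 h in each series, and the lowest of the 0 and 20 h signals, 6.3, lay above the highest of the 8 and 12 h signals, 2.0. The share of all probe sets that separate in these ways was not counted. The highest value fell at 0 h in all 3 series, and the lowest at 8 h in A and C and at 12 h in B.

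**Figure D1:**
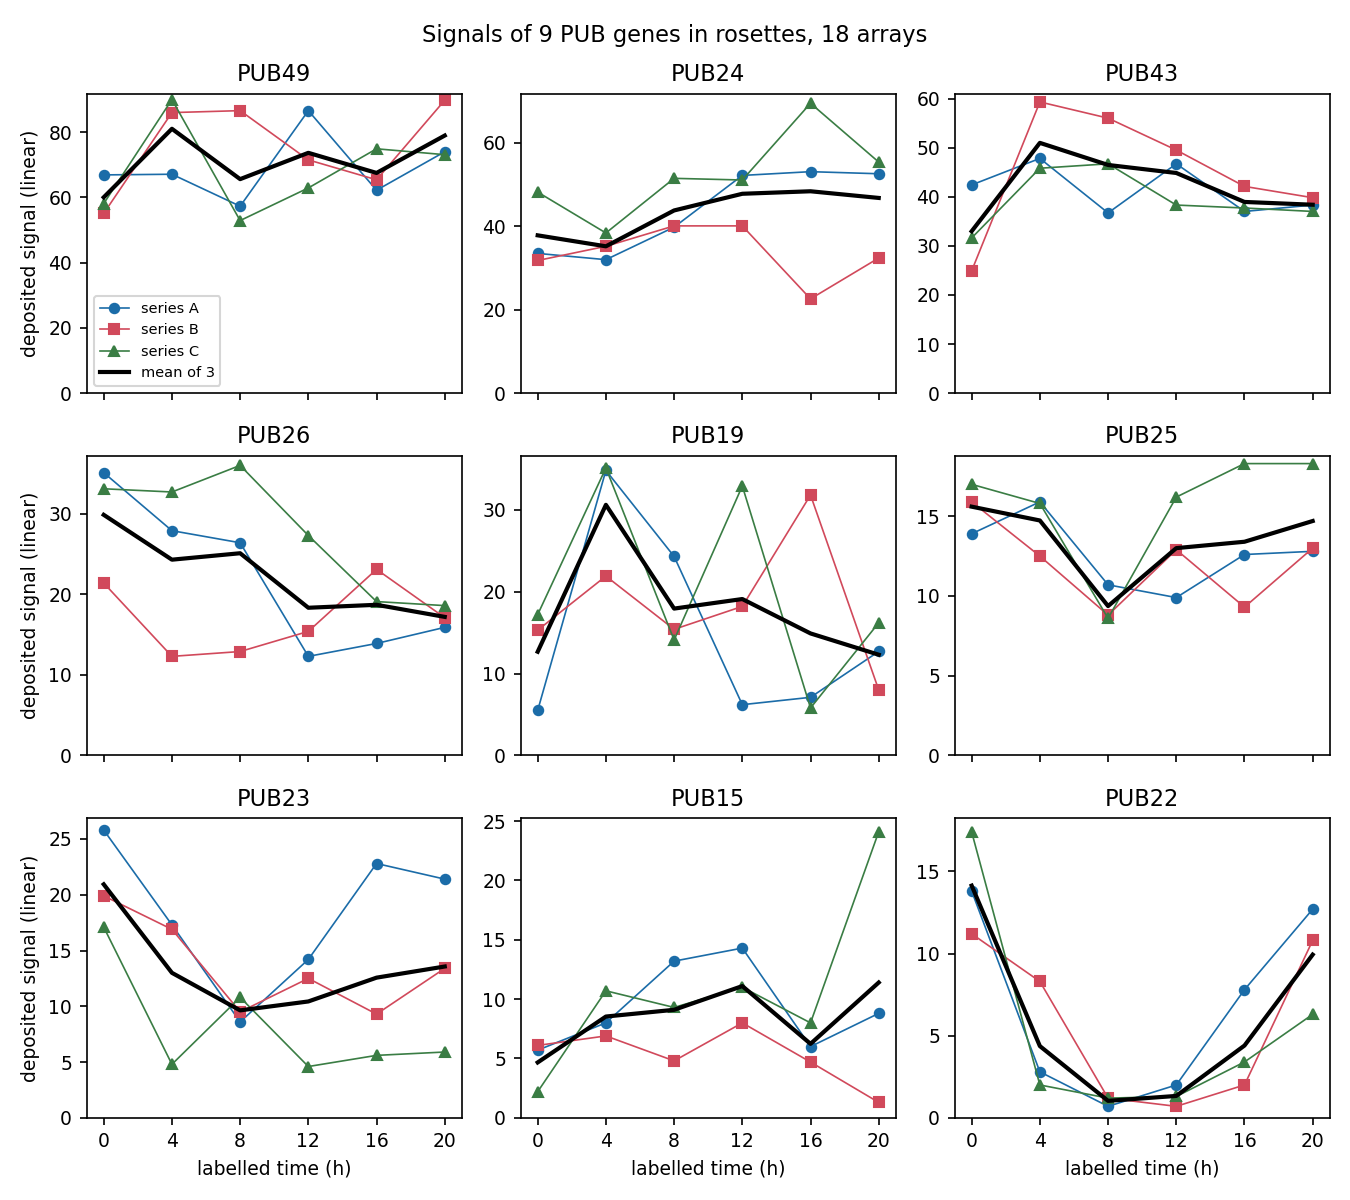
Deposited signal (linear, vertical axes from 0, each with its own scale) of the 9 PUB genes against labelled time in hours. Each symbol is 1 array, coloured lines join the arrays of series A, B and C, and the black line is the mean of 3 arrays. PUB22 runs from a mean of 14.1 at 0 h to 1.03 at 8 h and back to 9.93 at 20 h, and series cross one another in all panels.

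The mean signal of PUB22 was 14.1 ± 3.11 at 0 h, 4.37 ± 3.43 at 4 h, 1.03 ± 0.289 at 8 h, 1.33 ± 0.651 at 12 h, 4.40 ± 3.03 at 16 h and 9.93 ± 3.29 at 20 h (SD, n = 3 arrays). On the log2(signal + 1.1) scale its 6 time means spanned 2.83, and the limma moderated F test over the 6 means gave an adjusted p of 0.00303, with adjustment over all 22746 probe sets tested. Of those probe sets, 6.53% passed this test, and 0.879% of the 9098 below the 40th percentile of mean signal did, the class that holds PUB22. A range above that of PUB22 was found for 239 probe sets, 1.05% of all. With 1 of 9 members called, the share of PUB genes was near the background, so the count shows nothing about the family.

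Without series A the adjusted p of the F test for PUB22 was 0.233, and without series C it was 0.13, while the span of the means stayed at 2.86 and 2.73. In those fits to 12 arrays 0.756% and 1.32% of all probe sets passed. Without series B the adjusted p was 0.019, and it was 0.000444 when the 4 h and 16 h arrays of B were left out. The F test then called 9.18% and 12% of all probe sets. The values of PUB22 at 8 and 12 h lie close to the offset of 1.1, so the size depends on the offset. The span was 1.37 with the offset at the 25th percentile of the values, which is 7.1, and 3.62 with no offset and values below 1 set to 1, and the call held with both.

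Between times, PUB22 was lower at 12 h than at 0 h by a log2 difference of -2.66 ± 0.47 (SE, limma adjusted p = 0.00126), and lower in 3 of 3 series. The difference between 8 h and 0 h was -2.83 ± 0.47 (limma adjusted p = 0.00075). From 8 h to 20 h the gene was higher by 2.33 ± 0.47 (limma adjusted p = 0.0103), again in 3 of 3 series. Over all probe sets 10.9% were called between 12 h and 0 h, 10.7% between 8 h and 0 h and 3.26% between 20 h and 8 h, and PUB22 was the 1 member of 9 called in each. These contrasts share arrays at 0 h and 8 h and are not independent of one another. The call between 20 h and 8 h was lost without series A (limma adjusted p = 0.401), without series C (0.0978) and without the 20 h array of series A (0.0615). That between 8 h and 0 h was lost without series A (0.0523), and that between 12 h and 0 h held in every setting in which PUB22 was tested, with 0.044 as the highest adjusted p.

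The levels of PUB22 ran in the order 0, 20, 16, 4, 12 and 8 h, and neighbours in this order overlapped in their signals, or, for 4 h and 12 h, met at 2.0. The step from 20 h to 0 h was 0.49 ± 0.47 (limma adjusted p = 1), and that from 8 h to 12 h was 0.16 ± 0.47 (adjusted p = 1). At 4 h the gene was lower than at 0 h by -1.63 ± 0.47 (limma adjusted p = 0.0782). At 4 h the array of series B stood at 8.3 against 2.8 and 2.0, and at 16 h it stood at 2.0 against 7.8 and 3.4. With these arrays of B left out, the difference between 4 h and 0 h was -2.11 (limma adjusted p = 0.0099), and PUB22 was called. The same difference also passed with series as a block (0.0494), with the offset of 7.1 (0.0356), without series B (0.038) and with the 4 h array of B alone left out (0.0179). It did not pass without series A (limma adjusted p = 0.593), without series C (0.557) or with quantile normalization (0.0769). Nor did it pass without the 0 h array of A (0.184), B (0.134) or C (0.224), or without the 4 h array of A (0.231). The call between 4 h and 0 h thus depended on the setting. Between 16 h and 4 h the difference was 0.04 ± 0.47 with all arrays and 0.86 (limma adjusted p = 0.503) without those. The part of these arrays in the 4 h and 16 h means was not tested further.

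None of the 9 members was called in the 6 steps between neighbouring times or between 16 h and 4 h with all arrays by limma. The share of probe sets called was 2.71% for 0 to 4 h, 0.391% for 4 to 8 h, 0% for 8 to 12 h, 0.273% for 12 to 16 h, 0.0176% for 16 to 20 h, 0.198% for 20 to 0 h and 0% for 4 to 16 h. At an unadjusted p below 0.05, PUB22 and PUB43 passed for 0 to 4 h, PUB22 for 4 to 8 h, 12 to 16 h and 16 to 20 h, PUB19 for 4 to 16 h, and no member for the other steps. The share of all probe sets at that unadjusted threshold was not counted, so these are not read as changes.

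A cosine with a period of 24 h was also fitted. From peak to trough PUB22 differed by 2.88 ± 0.36 (log2 scale), with a fitted peak at 22.11 ± 0.48 h (SE, limma F test of the cosine, adjusted p = 8.04e-05). Of all probe sets 12.5% passed this test, as did 2% of those below the 40th percentile of mean signal, and 1 of the 9 members did. The adjusted p stayed between 3.54e-05 and 0.0103 in the 29 other settings in which PUB22 was tested, so unlike the F test it kept its call without series A and without series C. In those 2 fits the cosine also called 3.24% and 8.16% of all probe sets. Within single series the fitted peak was at 20.75 h for A, 23.47 h for B and 22.09 h for C, and the peak-to-trough difference was 3.17, 3.20 and 2.68. These sizes lay close together, while the peaks spanned more than the SE of the joint fit. A late fitted peak was common here, since 49.1% of the 2844 probe sets with a cosine call peaked between 20 and 24 h. The peak belongs to the curve, and the highest signal was at 0 h in each series. A single course of 24 h cannot show that a profile repeats.

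**Figure D2:**
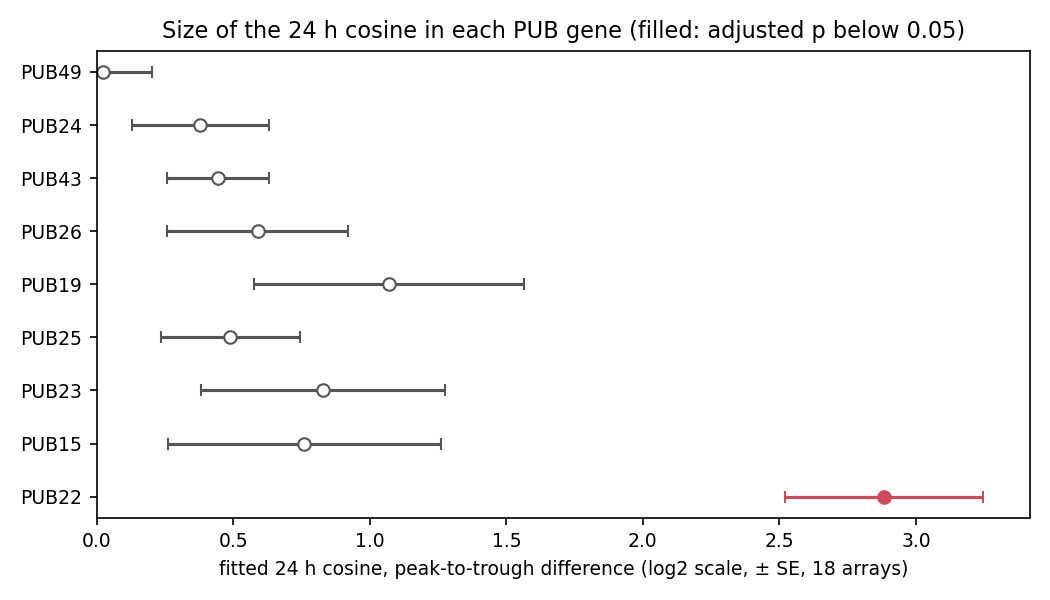
Peak-to-trough difference of the fitted 24 h cosine (log2 scale, horizontal axis from 0) for each PUB gene, with SE as bars cut at 0 where they reach it, from 18 arrays. The filled symbol is PUB22 at 2.88 (adjusted p = 8.04e-05), and the open symbols run from 0.02 for PUB49 to 1.07 for PUB19.

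**Figure D3:**
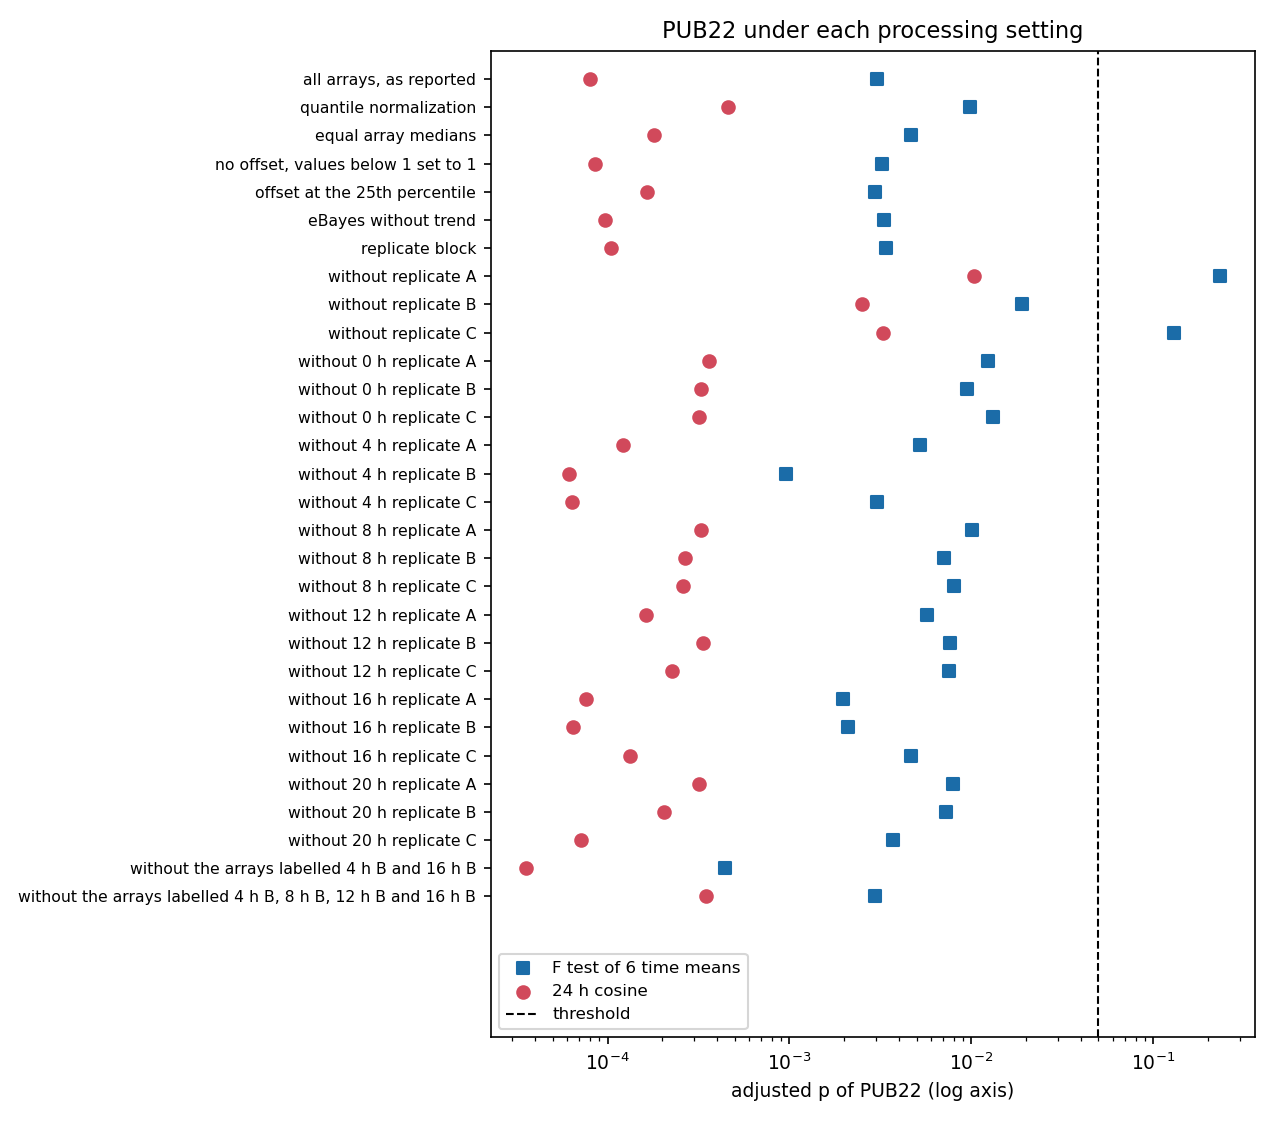
Adjusted p of PUB22 (log axis) under each processing setting, 1 row per setting, with squares for the F test of 6 time means, circles for the 24 h cosine and a dashed line at the threshold of 0.05. The squares without replicate A (0.233) and without replicate C (0.13) lie right of the line, and all circles lie left of it.

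PUB23 (AT2G35930) and PUB24 (AT3G11840) are the relatives that share the immune role of PUB22. PUB23 had signals of 25.8, 19.9 and 17.1 at 0 h, in the order A, B, C, of 17.3, 16.9 and 4.8 at 4 h, and of 8.6, 9.5 and 10.8 at 8 h. At 12 h they were 14.2, 12.5 and 4.6, at 16 h 22.8, 9.3 and 5.6, and at 20 h 21.4, 13.4 and 5.9. Each series was highest at 0 h, as for PUB22, but at 16 and 20 h A was above 20 while C was below 6. The difference between 12 h and 0 h was -1.04 ± 0.57 (SE, limma adjusted p = 0.32), and that of the cosine 0.83 ± 0.45 with a fitted peak at 23.4 ± 2.05 h (limma adjusted p = 0.514). The series differed in level, with mean signals of 18.4 in A, 13.6 in B and 8.13 in C. With series as a block, the limma adjusted p of PUB23 was 0.2 for the cosine, 0.418 for the F test and 0.0955 between 12 h and 0 h. On the log2 scale the 6 time means of PUB22 and PUB23 correlated with r = 0.86, a description of 6 points from the same arrays. With PUB24, the other relative of this role, r was -0.40. Outside it, PUB22 had r = 0.80 with PUB25, -0.76 with PUB43 and -0.80 with PUB15.

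PUB24 had 33.5, 31.8 and 48.2 at 0 h, again in the order A, B, C, and 53.1, 22.6 and 69.5 at 16 h. Series A and C were highest at 16 h and lowest at 4 h, whereas series B was lowest at 16 h. Its time means spanned 0.42 on the log2 scale (limma F test, adjusted p = 1), and its cosine spanned 0.38 ± 0.25 from peak to trough (adjusted p = 0.673). The low 16 h value of B comes from one of the arrays that resemble the opposite time. With that array left out the span was 0.77 (limma F test, adjusted p = 0.463) and the peak-to-trough difference 0.64 (adjusted p = 0.0884), so PUB24 was still not called. Without series A the peak-to-trough difference was 0.21, and without series B 0.72 (limma adjusted p = 0.0728). With SEs of this size the tests do not show that PUB23 or PUB24 was constant.

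The log2 ratio of PUB22 to each other member within an array is given as a description, with no test, because the course of PUB22 was known when it was singled out and its own swing enters every ratio. From peak to trough of a 24 h cosine over 18 arrays the ratio spanned 2.12 to PUB23, 2.40 to PUB25 and 2.75 to PUB26. To PUB49, PUB24, PUB43, PUB19 and PUB15 it spanned 2.88, 3.07, 3.29, 3.53 and 3.64. Each ratio was lower at 12 h than at 0 h in 3 of 3 series.

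PUB25 (AT3G19380) and PUB26 (AT1G49780) are close relatives that mark the transcription factor MYB15 for breakdown in the cold and the immune kinase BIK1 at rest. PUB25 had its lowest mean at 8 h, from signals of 10.7 in A, 8.8 in B and 8.6 in C, while the 0 h signals were 13.9, 15.9 and 17.0. These 2 times did not overlap, with a difference of -0.68 on the log2 scale (limma adjusted p = 0.235, against 10.7% of probe sets called). How common such a lack of overlap was over all probe sets was not counted. PUB26 had signals of 35.1, 21.4 and 33.1 at 0 h and of 15.9, 17.1 and 18.6 at 20 h. Series A was lowest at 12 h with 12.3, series B was lowest at 4 h with 12.3, and series C was highest at 8 h with 36.0. The cosine of PUB25 was 0.49 ± 0.25 and that of PUB26 0.59 ± 0.33 from peak to trough (limma adjusted p = 0.489 and 0.553). The fitted peak of PUB26 was at 2.82 h in A, 18.74 h in B and 5.52 h in C, and the 4 h value of B comes from an array that resembles the opposite time. Its peak-to-trough difference was 1.12 without series B (limma adjusted p = 0.0842), 0.98 without the arrays of B at 4 and 16 h (0.116) and 0.18 without series A, and it was not called in any of these fits.

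PUB19 (AT1G60190) restrains the response to the drought hormone abscisic acid. For A, B and C it had 34.8, 21.9 and 35.1 at 4 h and 5.5, 15.3 and 17.2 at 0 h, with no overlap between these times. The difference of 1.31 was not called (limma adjusted p = 0.338), and how many probe sets separate in this way was not counted. It also reached 32.9 in the 12 h array of series C and 31.8 in the 16 h array of series B, where the other series had 7.1 and 5.8. Its time means spanned 1.34, the second-highest span of the members, and the limma F test gave an adjusted p of 0.775. With the 4 h and 16 h arrays of B left out the span was 2.26 and the adjusted p 0.253.

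PUB43 (AT1G76390), a relative of the ligase SAUL1, had 42.4, 24.9 and 31.6 at 0 h and 47.8, 59.3 and 45.8 at 4 h, in the order A, B, C. Every 4 h value was above every 0 h value, and the difference was 0.64 (limma adjusted p = 0.161, against 2.71% of probe sets called). How common such a separation was over all probe sets was not counted. Later signals lay between 36.7 and 56.0. Without series B the span of the PUB43 time means was 0.34 in place of 0.64. PUB49 (AT5G67530), which carries a cyclophilin domain beside its U-box, ranged from 52.9 to 90.0 over all arrays, with its highest value at 12 h in series A, 20 h in series B and 4 h in series C. It had the smallest cosine of the 9, at 0.02 ± 0.18 (limma adjusted p = 0.999). PUB15 (AT5G42340) ranged from 1.3 to 24.1, and both ends fell at 20 h, in series B and series C. Its time means spanned 1.13 (limma F test, adjusted p = 0.975). The 0 h signals of PUB15, 5.7, 6.1 and 2.2, lay below those at 12 h, 14.3, 8.0 and 11.0. That difference was 1.13 ± 0.64 (limma adjusted p = 0.336), and the share of probe sets separated in this way was again not counted.

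Over the 9 members the median span of the time means was 0.73 on the log2 scale, with 0.42 as the lowest and 2.83 as the highest, beside a median of 0.64 over all probe sets. Between members, correlations of the 6 time means ran from -0.86 for PUB15 and PUB23 to 0.86 for PUB19 and PUB43, so members ran with and against one another. These are descriptions of few points from shared arrays.

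The genes whose values followed PUB22 most closely over the 18 arrays were sought among 5953 genes at or above the median mean signal. They were AT1G05840 (r = 0.97), AT4G21870 (0.95), AT5G41050 (0.95), AT2G04795 (0.94) and AT2G33250 (0.94). Over the 16 arrays left without those of B at 4 and 16 h, AT1G05840 was again first (0.97), and AT1G22890 (0.95) took the place of AT5G41050. The 5 genes had mean signals from 99.5 to 231.8, far brighter than PUB22 at 5.87. They had fitted peaks between 21.45 and 22.05 h, and their time means spanned between 1.01 for AT5G41050 and 4.56 for AT2G04795. The closest, AT1G05840, spanned 1.52. All points share the same arrays, and each list was picked as the most alike out of many, so r is a description.

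**Figure D4:**
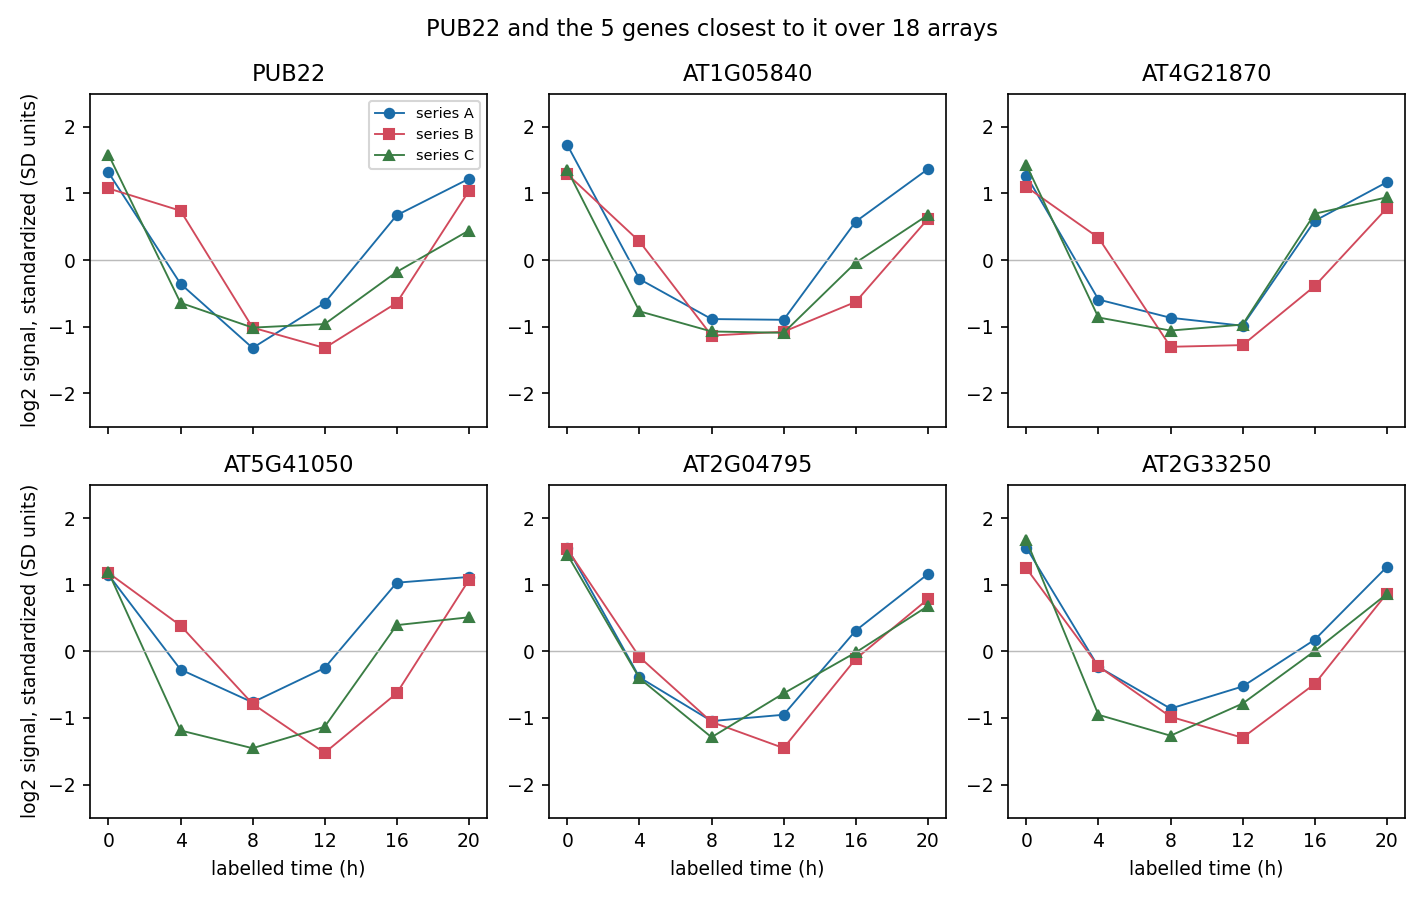
Log2 signal of PUB22 and of the 5 genes closest to it, each standardized to its own mean and SD over 18 arrays (vertical axis in SD units), against labelled time in hours. Each symbol is 1 array of series A, B or C, and all 6 genes are high at 0 and 20 h and low at 8 and 12 h. The 4 h array of series B lies above the other series at 4 h for all 6 genes, by little for AT2G33250 (signal 172.4 against 171.6 in A).

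Other genes of the ubiquitin pathway were counted from lists. Of 40 genes for E2 enzymes and their relatives, 13 had a probe set, and 2 of these 13 passed the limma F test over 6 times, against 6.53% of all probe sets. UBC28, an E2 of the class that commonly serves plant ligases, had signals of 2236, 1997 and 2518 at 0 h, and of 897, 1008 and 1161 at 8 h. These values did not overlap, a separation whose share over all probe sets was not counted. The time means of UBC28 spanned 1.18 (limma F test, adjusted p = 0.00456). Its fitted peak was at 21.51 ± 0.55 h beside 22.11 ± 0.48 h for PUB22, and 49.1% of all cosine calls peaked between 20 and 24 h. UBC28 belongs to a group of nearly identical E2 genes, so its probe set may read several of them. UBC20, a relative of the animal E2 that acts in mitosis, ran the other way, at 93.6, 99.7 and 105 at 0 h and at 139.7, 156 and 152.8 at 8 h (span 0.71, adjusted p = 0.0293). The median span of the 13 was 0.47.

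Among other U-box proteins, MAC3A and MAC3B, partners in a spliceosome-associated complex, were measured. MAC3B was at 547.2, 515.5 and 481.7 at 0 h and at 317.1, 360.1 and 373.7 at 8 h (span 0.56, limma adjusted p = 0.034), and MAC3A had a span of 0.12 (adjusted p = 1). The call of UBC28 was lost without series A (limma adjusted p = 0.478) and without series C (0.124). Those of UBC20 and MAC3B were lost in 13 and 16 of 30 other settings, among them the omission of any one series. RPN12a, a proteasome lid subunit and a target of PUB22 and PUB23, had a span of 0.37 (adjusted p = 0.967).

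No call was made by limma's F test for the 3 measured of 16 genes listed as targets or partners of PUB proteins, BIK1, SIZ1 and RPN12a, or for the 6 measured of 34 genes of the rapid stress and immune response. In that list WRKY6 had the largest span, 2.21 (adjusted p = 0.13), with signals of 13.5, 12.6 and 23.8 at 0 h and of 5.2, 1.7 and 2.4 at 8 h. These times did not overlap, a separation whose share over all probe sets was not counted. The contrast of 8 h with 0 h gave -2.11 (limma adjusted p = 0.0237), beside 10.7% of probe sets called. WRKY6 and WRKY22 are transcription factors of the stress and immune response, and WRKY22 passed in that contrast too (-1.06, adjusted p = 0.0494). The calmodulin-like gene CML37 passed between 12 h and 0 h (-1.37, adjusted p = 0.0237) and between 4 h and 0 h (-1.44, adjusted p = 0.049), with all its signals at or below 4.1. Over all probe sets 10.9% and 2.71% were called in these contrasts. Whether the contrast calls of the stress genes hold in other settings was not examined. WRKY22 and STZ spanned 1.06 and 0.90, and WRKY53, CML37 and CML38 0.62, 1.44 and 1.83. The 6 genes did not share a direction. From 0 h to 4 h WRKY53 and CML38 were higher, by 0.35 and 1.39 (limma adjusted p = 0.742 and 0.221), and the rest were lower. At an unadjusted p below 0.05, WRKY6, CML37 and CML38 passed the F test, with adjusted p of 0.13, 0.148 and 0.147. The share of all probe sets at that unadjusted threshold was not counted. CML37 and CML38 were dimmer than PUB22, with mean signals of 1.73 and 4.67. No gene for the E1 enzymes, the proteasome core or polyubiquitin was analysed here.

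**Figure D5:**
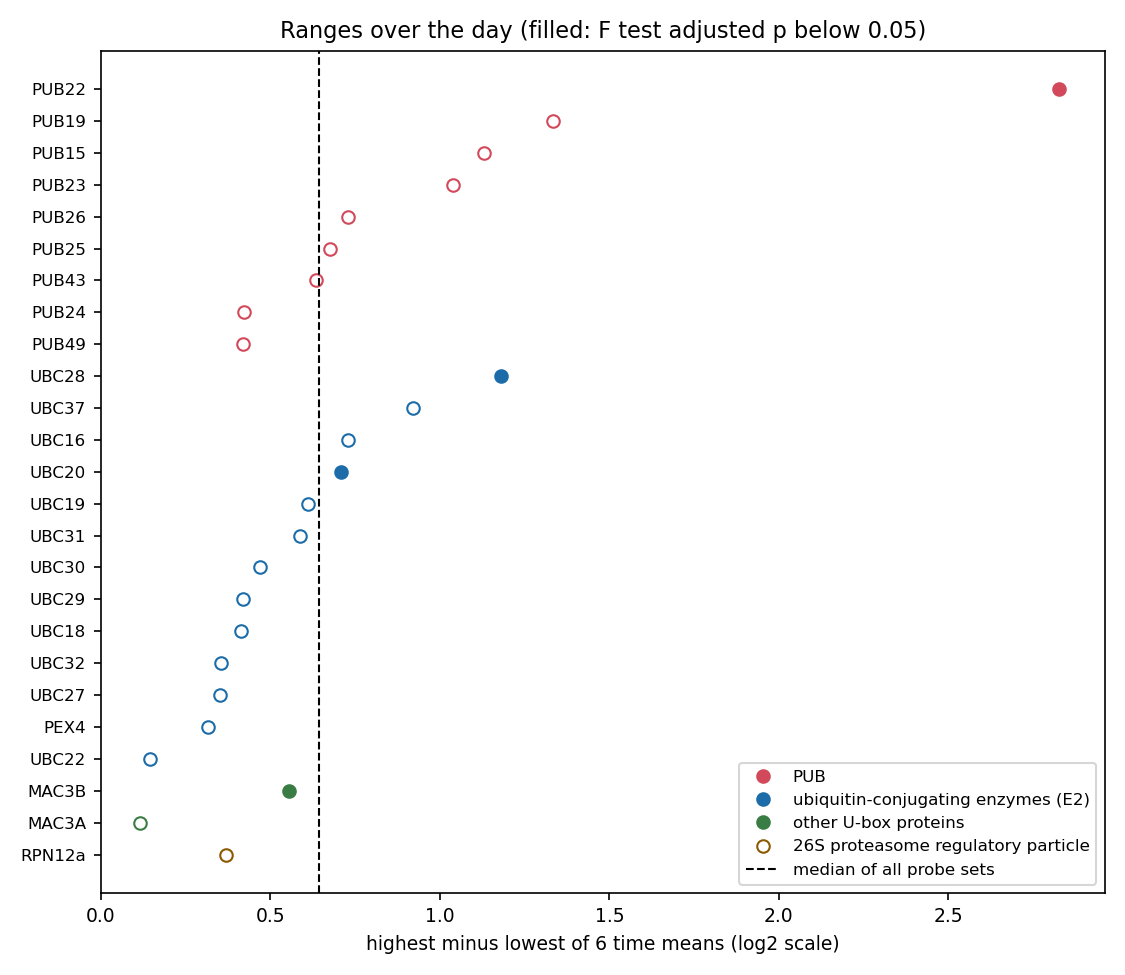
Highest minus lowest of the 6 time means (log2 scale, horizontal axis from 0) for the 9 PUB genes, 13 E2 genes, 2 other U-box genes and RPN12a. Filled symbols passed the F test, the dashed line is the median of all probe sets at 0.64, and PUB22 lies at 2.83, beyond UBC28 at 1.18.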

How the data were processed

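Transcript levels were measured in 18 rosette samples, 3 at each of 6 times. The deposited values are linear signal intensities, scaled per array by the authors; MAS5 is named per the submitters' processing notes, its version is not given in the sources used here, and the 2% trimmed mean is 98.6 to 99.9 on every array. All sample columns were used, and no pair of arrays was identical. Groups came from the sample titles. Probe sets were named through the platform annotation, with symbols updated by Entrez ID from a RefSeq table of TAIR10.1 (13436 of 13513 probe sets with 1 gene matched). The files name no genome build, and protein and promoter sequences were not analysed here.

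An offset of 1.1, the 10th percentile over all arrays, was added to each intensity before taking log2, and the result was fitted with limma 3.58.1 in R 4.3.3 (eBayes with intensity trend, 12 residual degrees of freedom for 6 means, Benjamini-Hochberg over 22746 probe sets, 64 controls left out, threshold 0.05). Tests were the F test of 6 means, the F test of a 24 h cosine and 10 contrasts of 2 times. The F test and the cosine test, but not the contrasts, were run on simulated data, and the outcome is not given here. All members are named, list genes are given as counts with values for those that passed, and the 5 most correlated genes were taken for PUB22; the 6 stress genes are named in addition. A symbol pattern for the proteasome core matched the chloroplast protein PALE CRESS, which was set aside. The members and lists were chosen with earlier results of these data known.

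The letters mark separately grown courses and so pair the arrays, but the main fits had no block for series and left this pairing out. The mean correlation of departures from the time means was 0.174, 0.161 and 0.328 within A, B and C. Between series at different times it was -0.109. That value largely follows from the others, because departures at each time sum to 0 over the series. Alternatives were quantile normalization, equal medians, 2 other offsets, omission of dim probe sets, no variance trend, series as a replicate block, and omission of each series, each array and the doubted arrays of series B.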

Additional observations from a re-analysis of the deposited data

How the results depend on the processing

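PUB22 made up the counts of members called: 1 by the F test over 6 times, 1 by the cosine and 1 in at least 1 of the 10 contrasts. With a replicate block (paired by series) the counts were 1, 1 and 1, and the adjusted p of PUB22 was 0.00339 by the F test and 0.000104 by the cosine, so no call by these tests changed; among the contrasts the block added a call of PUB22 between 4 h and 0 h (0.0494) and changed no other call of a member. When probe sets with a mean signal under 21.6 (40th percentile) were left out, the counts were 0, 0 and 0, because PUB22, PUB15, PUB23, PUB25 and PUB19 were then not tested. With single replicates or arrays left out the F count ran from 0 to 1, being 0 without replicate A and without replicate C, and the other counts were 1 throughout. In the other settings the 3 counts were 1. Each of the other 8 members went without a call by the F test, the cosine and the contrasts in each setting in which it was tested, with 0.0557 for PUB26 as the lowest adjusted p of the cosine. No gene had a second probe set, so the next brightest one could not be tried, and ranking by log2 signal leaves the same 9 members. Low signals without detection calls limit what can be said of PUB22 at 8 and 12 h, where it may lie at background. Why 2 arrays of series B resemble the opposite time was not tested.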
